A study of Danio rerio with 8 samples.

Results

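The Sox and Pou transcription factor genes were followed in zebrafish that, 26 hours after fertilisation (26 hpf), carried either the G177A allele of osgep or the wild-type gene. The members are the rows of the deposited count table whose symbol begins with sox and a digit, or with pou, a class digit from 1 to 6 and f. This rule found 42 of the 36351 rows, 27 Sox and 15 Pou. One of the Sox rows, sox2ot, is annotated as a long non-coding RNA by RefSeq and is not a transcription factor gene. Of the 42, 38 had enough counts to be tested, and the other 4 (sox8a, sox17, sox32 and pou4f3) are given as counts.

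The mutant group is 4 pools of maternal-zygotic (MZ) osgep G177A/G177A embryos, in which both the mother and the embryo had only the G177A allele. The comparison group is 4 pools of wild-type embryos of the same stage. All 8 pools were whole embryos, and the strain, the number of embryos per pool and the clutches are not stated in the labels. osgep encodes the enzyme of the KEOPS complex, a modifier of the tRNAs that read codons starting with A.

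Sox proteins bind the minor groove of DNA through a high-mobility-group box and bend it. They fall into lettered subgroups by the similarity of that box. Pou proteins bind octamer-like sites through a POU-specific domain joined to a POU homeodomain, and fall into numbered classes. SoxB1 and Pou proteins often occupy adjacent sites in neural enhancers. In the early vertebrate embryo SoxB1 genes hold neural cells in the progenitor state, SoxB2 genes oppose them, and SoxC, Pou3 and Pou4 genes act in cells that leave the cycle and become neurons. Many members exist as a and b copies that date from the genome duplication of teleost fish.

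Each library held 21290897 to 27675043 expected counts. Levels are depth-scaled counts (CPM, after TMM scaling between libraries), given per pool or as mean ± SD of 4 pools. The osgep transcript itself stood at 13.8, 8.38, 10.8 and 10.03 CPM in mutant pools 1 to 4, against 16.1, 20.4, 17.1 and 23.2 CPM in wild-type pools 1 to 4, and the genotypes did not overlap (log2 fold change −0.84, SE 0.18, edgeR adjusted p = 0.00826). A gene total cannot tell the alleles apart and is no check of the genotype. Mutant pool 1 stood apart from the other mutant pools: the second principal component, with 28.8% of the variance, placed it at one end and wild-type pool 4 at the other. The share of counts on ribosomal protein genes was 16.1% in mutant pool 1 and 7.88% to 10.8% in the other mutant pools, and 8.67% to 15.5% in wild-type pools. Because whole embryos were pooled, fewer cells of a type and less RNA per cell cannot be told apart in any value below.

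Of the 38 members tested, 13 fell and 2 rose in the mutant (edgeR adjusted p under 0.05 over all 22467 genes tested). Over all genes tested 16.3% fell, 15.8% rose and 32.2% changed in either direction, against 34.2%, 5.26% and 39.5% of the members. Their median log2 fold change was −0.34, against 0.00416 over all genes tested. All of the 13 that fell kept 38.9% to 78.6% of the wild-type level, and only sox12 differed by at least 2-fold among the 15. Mutant and wild-type pools were fully apart in 16 of the 38 (42.1%), against 33.7% of all genes tested. Without wild-type pool 2, 9 of the 38 changed (23.7%, all lower), against 23.2% of all genes tested, and without wild-type pool 3 also 9 (all lower), against 23.4%. These shares of all genes join both directions. Lower were 2680 of 22909 genes without wild-type pool 2 and 2726 of 22987 without wild-type pool 3. When the share of ribosomal protein counts entered the model, 23 changed (60.5%, 19 lower and 4 higher), against 52.2% of all genes. Of the 22467 genes 6068 were lower and 5650 higher there. The 8 that gained a call there were sox3, sox11a, sox13, sox21a, pou1f1, pou4f2, pou5f3 and pou6f1. Without both mutant pool 1 and wild-type pool 4, a choice made after seeing the data, 21 changed (55.3%, 17 lower and 4 higher), against 50.4% of all genes. Of the 22608 genes tested in that repeat 5729 were lower and 5656 higher. In that repeat sox3, sox4b, sox10, sox11a, pou3f2a, pou4f2 and pou6f1 gained a call and sox2 lost its own.

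**Figure D1:**
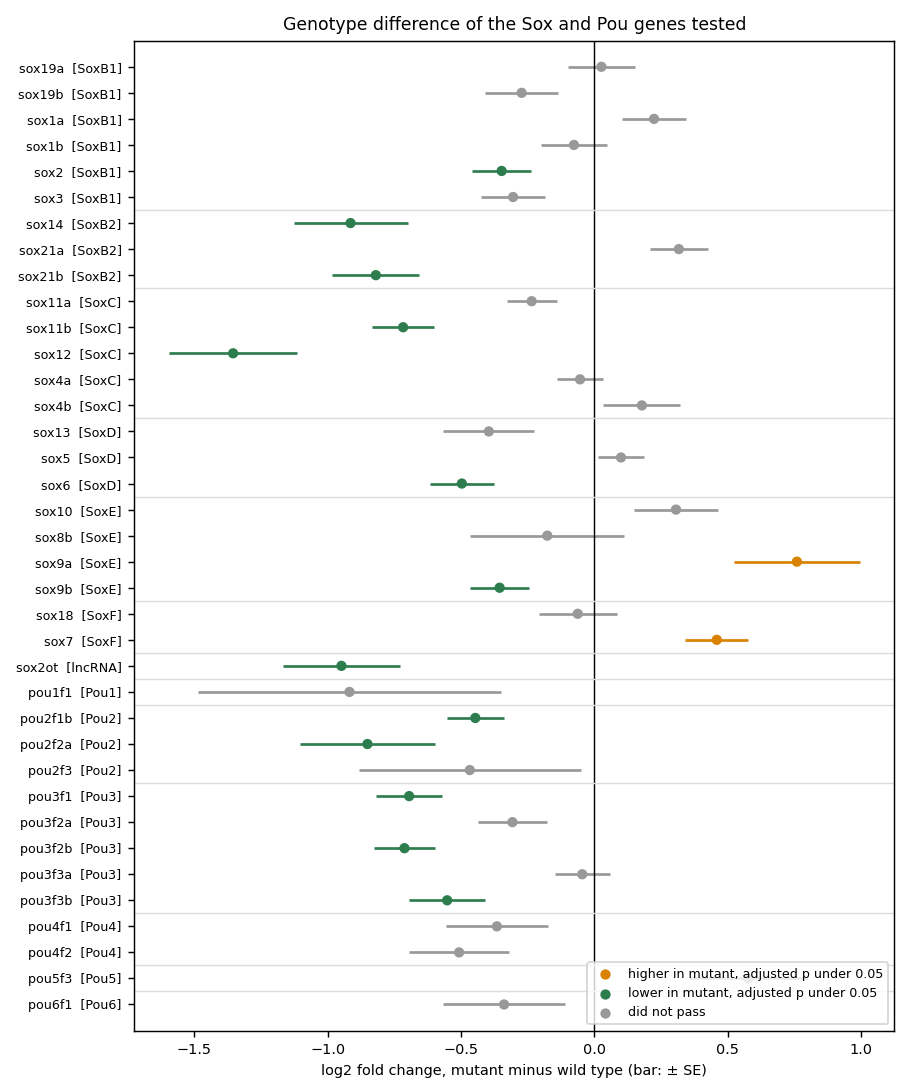
Log2 fold change (mutant minus wild type, horizontal axis) of the Sox and Pou genes tested, by subgroup, 1 of the 38 not being drawn, with bars of ± 1 SE from edgeR; orange marks genes higher and green genes lower at an adjusted p under 0.05, and grey the rest. The points that passed run from −1.35 for sox12 to 0.76 for sox9a, and 13 of the 15 lie left of 0.

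Among the 6 SoxB1 genes, sox2 fell and the other 5 did not pass. sox2, which keeps neural and sensory progenitors undifferentiated, measured 81.00, 88.4, 103 and 96.1 CPM in mutant pools 1 to 4, against 102, 129.8, 111 and 125 CPM in wild-type pools 1 to 4. The highest mutant pool lay at the level of the lowest wild-type pool, so the genotypes overlapped slightly (log2 fold change −0.35, SE 0.11, edgeR adjusted p = 0.0418). The call ended with an adjusted p of 0.0669 without mutant pool 1, 0.0969 without mutant pool 2, 0.08003 without mutant pool 4, 0.117 without wild-type pool 2, 0.0693 without wild-type pool 3 and 0.0787 without wild-type pool 4, of 0.0769 without both mutant pool 1 and wild-type pool 4, and of 0.0603 with no filter on low counts. sox3, another keeper of the neural progenitor state, measured 267 ± 32.6 CPM in mutant pools and 330.0 ± 28.9 CPM in wild-type pools (log2 fold change −0.304, SE 0.12, edgeR adjusted p = 0.0856) and passed when wild-type pool 4 was left out (adjusted p = 0.04397). sox19a and sox19b, SoxB1 genes of fish, of which sox19b is supplied by the mother, measured 371 ± 53.8 CPM in mutant pools and 365 ± 20.7 CPM in wild-type pools for sox19a and 68.9 ± 12.4 CPM in mutant pools and 83.2 ± 7.31 CPM in wild-type pools for sox19b. sox1b stood at 25.5 ± 3.93 CPM in mutant pools and 26.9 ± 1.34 CPM in wild-type pools, and sox1a, at 16.4 ± 1.497 CPM in mutant pools and 14.04 ± 1.405 CPM in wild-type pools, was one of 2 SoxB1 genes with a positive log2 fold change. The 6 genes summed to 841 ± 99.2 CPM in mutant pools and 936 ± 52.4 CPM in wild-type pools, 89.9% of wild type.

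In the list of neural progenitor genes, in which SoxB1 factors act, 3 of the 20 tested rose and 8 fell (median log2 fold change −0.25; summed level 2931 to 3426 CPM in mutant pools and 3272 to 3604 CPM in wild-type pools). For this and each later list, the shares to set beside the counts are 16.3% of all genes tested lower and 15.8% higher. The progenitor genes with the smallest p moved both ways. The Notch target her4.2 (43.1 ± 7.49 CPM in mutant and 104 ± 23.5 CPM in wild-type pools) and the radial glia gene fabp7a (39.2 ± 9.62 CPM in mutant and 75.95 ± 12.6 CPM in wild-type pools) fell. The intermediate filament gene nes (161 ± 11.3 CPM in mutant and 122 ± 1.86 CPM in wild-type pools) and the hairy-related gene her6 (85.97 ± 7.12 CPM in mutant and 58.00 ± 6.65 CPM in wild-type pools) rose.

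The SoxB2 genes, which repress SoxB1 targets, split between copies. sox21b measured 12.6, 12.6, 17.2 and 18.6 CPM in mutant pools 1 to 4, against 27.6, 29.7, 28.01 and 22.5 CPM in wild-type pools 1 to 4, and every mutant pool lay below every wild-type pool (log2 fold change −0.82, SE 0.16, edgeR adjusted p = 0.005603). sox21a, its sister copy, measured 63.3, 52.98, 68.9 and 65.5 CPM in mutant pools 1 to 4, against 54.4, 53.6, 48.6 and 44.6 CPM in wild-type pools 1 to 4. Only the lowest mutant pool overlapped the wild-type range, and the gene did not pass (log2 fold change 0.32, SE 0.11, edgeR adjusted p = 0.0537). It passed without mutant pool 2 (adjusted p = 0.0213), with DESeq2 size factors in edgeR (adjusted p = 0.0484) and with DESeq2 (adjusted p = 0.02498), each time higher in the mutant. sox14, the third SoxB2 gene, expressed in groups of interneurons, measured 2.27, 2.36, 1.76 and 2.25 CPM in mutant pools 1 to 4, against 3.02, 3.84, 4.48 and 4.97 CPM in wild-type pools 1 to 4. All of its mutant pools lay below its wild-type pools (log2 fold change −0.91, SE 0.21, edgeR adjusted p = 0.0113).

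Of the 5 SoxC genes, which promote the maturation of young neurons, sox11b and sox12 fell and none rose. sox11b measured 276, 239, 292 and 303 CPM in mutant pools 1 to 4, against 429, 517, 467 and 413 CPM in wild-type pools 1 to 4, a mutant mean of 60.8% of wild type, with no overlap (log2 fold change −0.72, SE 0.12, edgeR adjusted p = 0.00219). sox12 measured 1.64, 1.61, 1.91 and 2.57 CPM in mutant pools 1 to 4, against 5.07, 4.82, 6.33 and 3.64 CPM in wild-type pools 1 to 4, also with no overlap, and had the lowest log2 fold change of all members that passed (log2 fold change −1.35, SE 0.24, edgeR adjusted p = 0.00329). sox11a, the sister copy of sox11b, stood at 193 ± 10.4 CPM in mutant pools and 227 ± 19.9 CPM in wild-type pools and did not pass (log2 fold change −0.23, SE 0.094, edgeR adjusted p = 0.0891), though it did without wild-type pool 4 (adjusted p = 0.0356). sox4a measured 87.2 ± 7.47 CPM in mutant pools and 90.5 ± 4.22 CPM in wild-type pools. sox4b measured 19.2 ± 3.29 CPM in mutant pools and 16.9 ± 1.33 CPM in wild-type pools, and neither passed. The SoxC genes summed to 579 ± 36.9 CPM in mutant pools and 796 ± 59.7 CPM in wild-type pools, 72.7% of wild type.

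**Figure D2:**
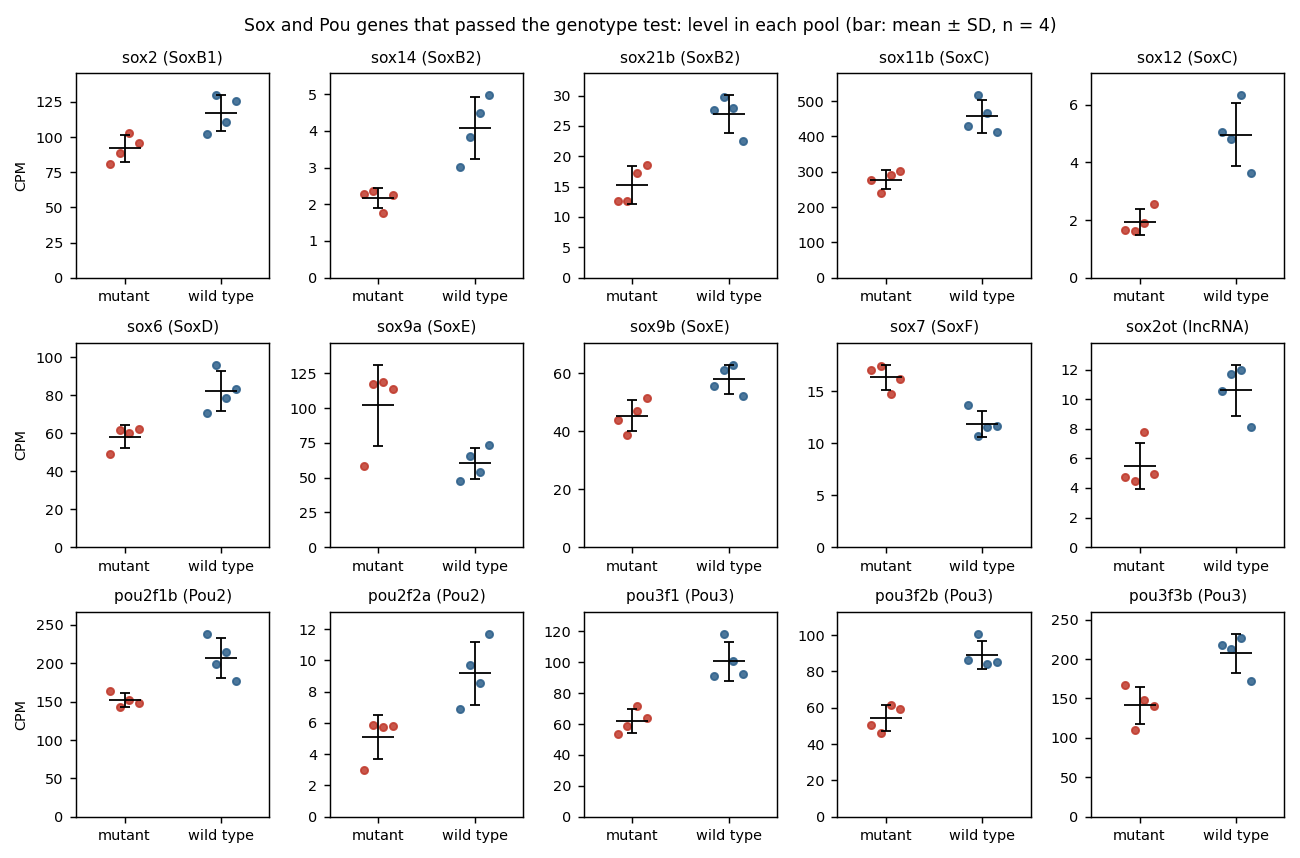
Level in CPM (vertical axes, starting at 0) of the 15 Sox and Pou genes that passed the genotype test, 1 panel per gene, with a point for each pool and a bar at the mean ± SD of 4 pools, mutant left and wild type right. In 13 panels the genotypes do not overlap, as for sox11b with at most 303 CPM in mutant and at least 413 CPM in wild-type pools, while sox2 and sox9a overlap.

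SoxD proteins lack an activation domain and tune the action of other factors. Of the 3 genes, sox6 fell. In zebrafish sox6 represses slow fibre genes in fast muscle. It measured 49.1, 61.6, 60.2 and 62.3 CPM in mutant pools 1 to 4, against 70.9, 96.1, 78.5 and 83.4 CPM in wild-type pools 1 to 4. Every mutant pool lay below the wild-type pools, and mutant pool 1 was the lowest (log2 fold change −0.497, SE 0.12, edgeR adjusted p = 0.0131). sox13 stood at 64.4 ± 13.3 CPM in mutant pools and 84.8 ± 12.3 CPM in wild-type pools (log2 fold change −0.395, SE 0.17, edgeR adjusted p = 0.112), and sox5 at 124 ± 11.6 CPM in mutant pools and 115 ± 2.89 CPM in wild-type pools (log2 fold change 0.1004, SE 0.088, edgeR adjusted p = 0.431), so neither passed. In the list of slow and fast muscle genes 10 of 18 fell and 1 rose (median log2 fold change −1.204; summed level 1689 to 2116 CPM in mutant pools and 4753 to 6396 CPM in wild-type pools). The fast muscle genes tnni2a.4, myhz1.1, tnnt3a and myhz1.2 had log2 fold changes of −6.61, −4.47, −4.398 and −4.103. The slow myosin gene smyhc1, named after its value was seen, did not pass (1020.0 ± 208 CPM in mutant and 1139 ± 435 CPM in wild-type pools). The slow muscle genes of the list were mixed, also named after their values were seen. tnnc1b fell (28.0 ± 2.78 CPM in mutant and 84.1 ± 11.1 CPM in wild-type pools), while smyhc2, tnnt1, tnni1b and myh7ba did not pass. The regulator genes prox1a and prdm1a both passed, with log2 fold changes of −0.499 and 0.66. The part of the lower muscle transcripts in the value of sox6 was not tested.

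The SoxE genes of neural crest, cartilage and glia did not move together. sox9a, needed for cartilage in zebrafish, measured 58.4, 117, 119 and 114 CPM in mutant pools 1 to 4, against 47.9, 65.9, 53.9 and 73.2 CPM in wild-type pools 1 to 4. Mutant pools 2 to 4 lay above every wild-type pool and mutant pool 1 lay among them (log2 fold change 0.76, SE 0.24, edgeR adjusted p = 0.0378). The call ended with an adjusted p of 0.0874 without mutant pool 2, 0.0965 without mutant pool 3, 0.0937 without mutant pool 4, 0.0965 without wild-type pool 1, 0.0711 without wild-type pool 2 and 0.0997 without wild-type pool 3, while without mutant pool 1 the log2 fold change was 0.95 (adjusted p = 0.001905). sox9b, the sister copy with roles in neural crest and glia, measured 43.8, 38.8, 46.8 and 51.5 CPM in mutant pools 1 to 4, against 55.4, 61.1, 62.9 and 52.04 CPM in wild-type pools 1 to 4, close to each other but not overlapping (log2 fold change −0.35, SE 0.11, edgeR adjusted p = 0.0381). That call ended with an adjusted p of 0.0575 without mutant pool 1, 0.0851 without mutant pool 2, 0.0772 without mutant pool 3, 0.0641 without wild-type pool 1, 0.107 without wild-type pool 2 and 0.107 without wild-type pool 3, with the replicate block (0.0662) and with no filter on low counts (0.0569). sox10, which specifies pigment cells and peripheral glia, stood at 50.5 ± 9.58 CPM in mutant pools and 40.8 ± 5.12 CPM in wild-type pools and did not pass (log2 fold change 0.31, SE 0.16, edgeR adjusted p = 0.174), but passed without mutant pool 1 (adjusted p = 0.0201). sox8b stood at 1.09 ± 0.318 CPM in mutant pools and 1.23 ± 0.217 CPM in wild-type pools and did not pass. sox8a was read at 2, 3, 2 and 2 counts in mutant pools 1 to 4, against 0, 2, 1 and 0 counts in wild-type pools 1 to 4. Its depth-scaled ratio of 2.84 had a 95% counting interval of 0.709 to 16.3.

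Beside these genes, 10 of the 19 neural crest and pigment genes tested fell and 1 rose (median log2 fold change −0.69; summed level 374 to 426 CPM in mutant pools and 429 to 568 CPM in wild-type pools). The melanosome transport gene mlpha (0.0787 ± 0.0275 CPM in mutant and 2.65 ± 1.03 CPM in wild-type pools), the pigment cell gene aox5 (10.3 ± 1.62 CPM in mutant and 28.7 ± 3.08 CPM in wild-type pools) and the receptor kinase gene ltk (1.44 ± 0.269 CPM in mutant and 4.71 ± 0.827 CPM in wild-type pools) fell. snai2, a gene of early crest, rose (82.1 ± 8.503 CPM in mutant and 50.3 ± 0.189 CPM in wild-type pools). Other crest genes of the list, named after their values were seen, were mixed. tfap2b fell (10.04 ± 0.936 CPM in mutant and 17.6 ± 1.31 CPM in wild-type pools), and foxd3 did not pass (log2 fold change −0.32). crestin held 21.6 to 56.7 CPM in mutant and 48.8 to 89.8 CPM in wild-type pools. tfap2a held 100.1 to 113 CPM in mutant and 89.5 to 108 CPM in wild-type pools. In the list of cartilage and notochord genes 5 of 14 fell and 1 rose (median log2 fold change −0.29; summed level 3044 to 3935 CPM in mutant pools and 4176 to 4535 CPM in wild-type pools). The matrix genes col11a2, matn4 and acana had log2 fold changes of −1.59, −1.4003 and −1.89, and ctgfa one of −0.63. The type II collagen gene col2a1a, named after its value was seen, measured 1084 ± 182 CPM in mutant and 1372 ± 101 CPM in wild-type pools and did not pass (log2 fold change −0.34). Its copy col2a1b, named likewise, did not pass either (log2 fold change −0.23). For both copies every mutant pool lay below every wild-type pool. Over all genes tested 32.2% changed, beside 6 of 14 in this list and 2 of 7 in the glial list that follows. Of 7 genes of the glial lineage tested, plp1a (89.1 ± 7.96 CPM in mutant and 255 ± 35.8 CPM in wild-type pools) and slc1a2b (20.98 ± 1.41 CPM in mutant and 37.5 ± 4.33 CPM in wild-type pools) fell, none rose, and mbpa had no count in any pool (median log2 fold change −0.66; summed level 140.3 to 168 CPM in mutant pools and 321 to 410.0 CPM in wild-type pools).

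SoxF genes act in vessels (sox7, sox18) and in endoderm (sox17, sox32). sox7 measured 17.1, 17.4, 14.7 and 16.1 CPM in mutant pools 1 to 4, against 13.6, 10.7, 11.5 and 11.7 CPM in wild-type pools 1 to 4. Every mutant pool lay above every wild-type pool (log2 fold change 0.46, SE 0.12, edgeR adjusted p = 0.0171). Leaving out a pool ended this call in 2 cases, with an adjusted p of 0.0627 without wild-type pool 2 and 0.0546 without wild-type pool 3. sox18 measured 8.502 ± 1.27 CPM in mutant pools and 8.87 ± 0.742 CPM in wild-type pools and did not pass (log2 fold change −0.062, SE 0.15, edgeR adjusted p = 0.787). The endothelial list also went both ways: 4 of 21 genes rose and 6 fell (median log2 fold change 0.077; summed level 604 to 685 CPM in mutant pools and 506 to 573 CPM in wild-type pools). efnb2a and ephb4a had the highest levels of the list and weighed most in that sum. efnb2a, named after its value was seen, held 122 to 181 CPM in mutant and 111 to 145 CPM in wild-type pools. kdrl, named likewise, went the other way, with 16.8 to 21.4 CPM in mutant and 23.1 to 29.3 CPM in wild-type pools. The early vessel regulator etv2 (52.4 ± 5.99 CPM in mutant and 20.3 ± 3.998 CPM in wild-type pools) and the venous receptor gene ephb4a (119.8 ± 5.61 CPM in mutant and 88.9 ± 5.76 CPM in wild-type pools) rose. The channel gene aqp1a.1 (9.57 ± 0.577 CPM in mutant and 17.6 ± 3.39 CPM in wild-type pools) and the Notch ligand gene dll4 (9.03 ± 0.812 CPM in mutant and 14.1 ± 2.29 CPM in wild-type pools) fell. Altogether 10 of the 21 endothelial genes changed, against 32.2% of all genes tested.

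sox32, the zebrafish gene that starts endoderm formation in the blastula, was nearly unread in wild type. It had 29, 4, 5 and 15 counts in mutant pools 1 to 4, against 0, 0, 2 and 1 counts in wild-type pools 1 to 4. Every mutant pool held more than every wild-type pool, but mutant pool 1 alone gave 29 of the 53 mutant counts. The depth-scaled ratio of 53 mutant to 3 wild-type counts was 16.7, with a 95% counting interval of 5.42 to 83.7. The gene was under the low-count filter. With no filter edgeR gave an adjusted p of 0.0214 for sox32, 0.5001 for sox17, 0.343 for sox8a and 0.283 for pou4f3. Its target sox17, which lies on the same chromosome with 1 annotated gene between them in the RefSeq order of the assembly GRCz12tu, had 3, 12, 9 and 10 counts in mutant pools 1 to 4, against 6, 1, 6 and 7 counts in wild-type pools 1 to 4. That ratio of 1.61 had an interval of 0.900 to 2.95, so no difference was detectable at this depth. In the endoderm list 7 of 11 genes tested rose and 1 fell (median log2 fold change 1.0002; summed level 146 to 222 CPM in mutant pools and 85.5 to 129.8 CPM in wild-type pools). The regulators foxa2 (24.2 ± 2.17 CPM in mutant and 15.5 ± 2.21 CPM in wild-type pools), pdx1 (3.82 ± 0.738 CPM in mutant and 1.796 ± 0.405 CPM in wild-type pools) and hnf1ba (24.5 ± 3.86 CPM in mutant and 12.3 ± 3.805 CPM in wild-type pools) rose, and the chemokine receptor gene cxcr4a fell (16.6 ± 1.503 CPM in mutant and 24.3 ± 2.68 CPM in wild-type pools).

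The non-coding transcript sox2ot measured 4.71, 4.46, 7.81 and 4.93 CPM in mutant pools 1 to 4, against 10.5, 11.7, 11.95 and 8.15 CPM in wild-type pools 1 to 4. No mutant pool reached the wild-type range, and the mutant mean was 51.7% of wild type (log2 fold change −0.95, SE 0.22, edgeR adjusted p = 0.0107). In the RefSeq annotation sox2 lies inside the span of sox2ot. Whether strand was used in counting is not given in the sources used here, so reads of the overlapping parts may not be separated.

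All 5 Pou3 genes, which act in neural progenitors and young neurons, had negative log2 fold changes, and 3 of them passed. pou3f1 measured 53.7, 58.9, 71.7 and 64.3 CPM in mutant pools 1 to 4, against 90.9, 118, 101 and 92.3 CPM in wild-type pools 1 to 4, with no overlap (log2 fold change −0.69, SE 0.12, edgeR adjusted p = 0.00316). pou3f2b measured 50.6, 45.8, 61.5 and 59.4 CPM in mutant pools 1 to 4, against 86.01, 100.5, 84.3 and 85.4 CPM in wild-type pools 1 to 4, again with no overlap (log2 fold change −0.71, SE 0.12, edgeR adjusted p = 0.00218). pou3f3b measured 167, 110.3, 148 and 140.0 CPM in mutant pools 1 to 4, against 218, 213, 227 and 172 CPM in wild-type pools 1 to 4. Its mutant pools reached 167 CPM and its wild-type pools began at 172 CPM (log2 fold change −0.55, SE 0.14, edgeR adjusted p = 0.0182), and the call ended with an adjusted p of 0.0527 without mutant pool 4, 0.0501 without wild-type pool 2 and 0.0551 without wild-type pool 3. The sister copies stood closer to wild type. pou3f2a measured 24.9 ± 3.81 CPM in mutant pools and 30.8 ± 2.45 CPM in wild-type pools (log2 fold change −0.31, SE 0.13, edgeR adjusted p = 0.107) and pou3f3a 71.2 ± 6.71 CPM in mutant pools and 73.5 ± 7.37 CPM in wild-type pools (log2 fold change −0.045, SE 0.104, edgeR adjusted p = 0.782), so neither passed. The pou3f2a pools did not overlap, with at most 27.1 CPM in mutant and at least 27.5 CPM in wild-type pools. Summed, the class stood at 354 ± 39.6 CPM in mutant pools and 501 ± 42.6 CPM in wild-type pools, 70.6% of wild type.

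Both tested Pou4 genes had negative values and neither passed. pou4f1, a regulator of sensory neurons, measured 5.13, 4.64, 6.09 and 7.53 CPM in mutant pools 1 to 4, against 8.08, 8.38, 7.72 and 5.99 CPM in wild-type pools 1 to 4, and the genotypes overlapped (log2 fold change −0.37, SE 0.19, edgeR adjusted p = 0.184). pou4f2, a regulator of retinal ganglion cells, measured 3.28, 2.81, 3.14 and 3.32 CPM in mutant pools 1 to 4, against 3.93, 4.62, 5.67 and 3.64 CPM in wild-type pools 1 to 4. Its genotypes did not overlap, but it missed the threshold (log2 fold change −0.51, SE 0.19, edgeR adjusted p = 0.0706) and passed without wild-type pool 4 (adjusted p = 0.0449). pou4f3, a gene of hair cells, had 0, 1, 4 and 1 counts in mutant pools 1 to 4, against 1, 8, 2 and 7 counts in wild-type pools 1 to 4. The ratio was 0.316, with a 95% counting interval of 0.103 to 0.830 that leaves out the spread between pools, and with no filter the gene did not pass (edgeR adjusted p = 0.283).

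SoxC, Pou3 and Pou4 genes act in young neurons, and most transcripts of a neuron list fell. Of the 20 postmitotic neuron genes tested 14 fell and none rose (median log2 fold change −0.93; summed level 790.0 to 948 CPM in mutant pools and 1304 to 1667 CPM in wild-type pools). The neuronal RNA-binding protein gene elavl4 (27.2 ± 2.36 CPM in mutant and 62.7 ± 6.48 CPM in wild-type pools), the synaptic gene snap25a (14.7 ± 2.06 CPM in mutant and 53.9 ± 11.3 CPM in wild-type pools), the tubulin gene tubb5 (145 ± 23.5 CPM in mutant and 399.9 ± 48.8 CPM in wild-type pools) and the neurofilament gene nefmb (2.54 ± 0.745 CPM in mutant and 11.9 ± 1.805 CPM in wild-type pools) led by p. All 20 had negative log2 fold changes, but not every gene passed. elavl3, named after its value was seen, did not (449 ± 44.2 CPM in mutant and 550 ± 42.4 CPM in wild-type pools, log2 fold change −0.29). Still, every mutant pool of elavl3 lay below every wild-type pool. The tested SoxC, Pou3 and Pou4 genes shared no common level. Their mutant means ran from 38.9% of the wild-type mean for sox12 to 113% for sox4b. Within that range sox11b stood at 60.8%, pou3f2b at 61.04% and pou3f1 at 61.8%. Of 14 genes of sensory neurons and retinal ganglion cells 6 fell and none rose (median log2 fold change −0.54; summed level 102 to 133 CPM in mutant pools and 164 to 197 CPM in wild-type pools). They were led by ntrk2a, eomesa, p2rx3b and trpv1, with log2 fold changes of −1.27, −1.54, −1.57 and −1.403. Of all genes tested 16.3% fell. The part of neuron number in the values of the Sox and Pou genes was not tested.

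The otic vesicle and hair cell list, in which sox2 and pou4f3 act, held 2 of 15 genes that rose and 4 that fell (median log2 fold change −0.015; summed level 369 to 383 CPM in mutant pools and 364 to 405 CPM in wild-type pools). atoh1b (5.52 ± 0.862 CPM in mutant and 15.6 ± 2.33 CPM in wild-type pools) and atoh1a (7.14 ± 1.15 CPM in mutant and 15.98 ± 1.07 CPM in wild-type pools), which start hair cell and hindbrain neuron fates, fell. The otolith gene otomp fell as well, with a log2 fold change of −0.98, and gfi1aa rose with one of 2.18. Altogether 6 of the 15 otic genes changed, against 32.2% of all genes tested.

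Of the Pou2 genes, which encode octamer-binding factors, pou2f1b and pou2f2a fell. pou2f1b, a copy of the widely expressed octamer factor gene, measured 164, 143, 153 and 149 CPM in mutant pools 1 to 4, against 238, 199, 215 and 176.998 CPM in wild-type pools 1 to 4, with no overlap (log2 fold change −0.45, SE 0.11, edgeR adjusted p = 0.0128). The row listed as pou2f2a carries an Ensembl identifier that the reference name table calls pou2f2b. Of the 41 member identifiers it was the only one with a conflicting name there, while 12 are listed under a name without the copy letter, which cannot check a against b. It measured 2.99, 5.84, 5.71 and 5.82 CPM in mutant pools 1 to 4, against 6.86, 9.67, 8.53 and 11.7 CPM in wild-type pools 1 to 4. No mutant pool reached the lowest wild-type pool, and mutant pool 1 was the lowest of all (log2 fold change −0.85, SE 0.25, edgeR adjusted p = 0.0323). The call ended with an adjusted p of 0.0602 without mutant pool 3, 0.0575 without mutant pool 4, 0.0815 without wild-type pool 2, 0.0614 without wild-type pool 3 and 0.0682 without wild-type pool 4. pou2f3 was read at 1.07 ± 0.455 CPM in mutant pools and 1.48 ± 0.714 CPM in wild-type pools and did not pass (log2 fold change −0.47, SE 0.42, edgeR adjusted p = 0.4403).

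pou5f3, the fish relative of the mammalian pluripotency Pou gene, measured 8.79, 8.03, 11.1 and 9.497 CPM in mutant pools 1 to 4, against 7.87, 6.07, 7.19 and 3.96 CPM in wild-type pools 1 to 4. Every mutant pool lay above every wild-type pool, and it was the only tested Pou gene with a positive log2 fold change, but it did not pass (log2 fold change 0.58, SE 0.22, edgeR adjusted p = 0.0778). With DESeq2 it passed (adjusted p = 0.0459). In the list of its early embryo partners and targets 8 of 16 genes rose and 1 fell (median log2 fold change 0.24; summed level 876 to 1004 CPM in mutant pools and 898 to 994 CPM in wild-type pools). Most of that sum came from hnrnpa0a, named after its value was seen. It did not pass, at 489 ± 38.6 CPM in mutant and 585 ± 51.0 CPM in wild-type pools. The ventral homeobox genes vox (22.2 ± 4.82 CPM in mutant and 5.56 ± 1.11 CPM in wild-type pools) and vent (5.85 ± 1.62 CPM in mutant and 1.47 ± 0.454 CPM in wild-type pools) rose, as did cdx4 (80.5 ± 15.8 CPM in mutant and 42.6 ± 10.9 CPM in wild-type pools) and klf17 (39.4 ± 6.42 CPM in mutant and 15.8 ± 7.73 CPM in wild-type pools). nanog, a partner of pou5f3 in the blastula and the gene that fell, named after its value was seen, measured 0.325 ± 0.0953 CPM in mutant and 0.723 ± 0.126 CPM in wild-type pools.

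pou6f1 and pou1f1 did not pass. pou6f1, a gene of brain and retina, measured 51.6, 25.4, 31.9 and 32.5 CPM in mutant pools 1 to 4, against 53.9, 40.97, 49.3 and 34.7 CPM in wild-type pools 1 to 4. Mutant pool 1 stood at the upper end of the wild-type range, the other mutant pools lay below every wild-type pool (log2 fold change −0.34, SE 0.23, edgeR adjusted p = 0.299), and the gene passed without mutant pool 1 (adjusted p = 0.0304). pou1f1, needed for hormone cells of the pituitary, measured 0.403 ± 0.114 CPM in mutant pools and 0.756 ± 0.568 CPM in wild-type pools, and its wild-type pools spread from 0.191 to 1.53 CPM. The pituitary hormone genes prl, gh1, tshba, pomca and cga were below the low-count filter.

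The a and b copies of a gene were compared through the log2 ratio of their CPM in each pool. Of 2312 pairs of symbols that differ only in a final a or b, 35.5% had a ratio that differed between genotypes. Of the 8 Sox and Pou pairs 5 did (62.5%). In all 5 the a copy gained on the b copy in the mutant, and the direction over all pairs was not counted. For sox21 the log2 ratio was 2.28, 2.03, 1.97 and 1.79 in mutant pools 1 to 4, against 0.96, 0.84, 0.79 and 0.97 in wild-type pools 1 to 4. Every mutant value lay above every wild-type value (difference 1.13, SE 0.13, limma adjusted p = 0.000276), while the sum of both copies was 77.9 ± 9.35 CPM in mutant pools and 77.3 ± 7.34 CPM in wild-type pools. sox21a thus made up 80.5% of the sum in mutant pools and 65.2% in wild-type pools.

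For sox9 the log2 ratio was 0.41, 1.59, 1.33 and 1.13 in mutant pools 1 to 4, against −0.21, 0.11, −0.22 and 0.49 in wild-type pools 1 to 4. Mutant pool 1 lay just below the highest wild-type pool and the other mutant pools above all of them (difference 1.07, SE 0.26, limma adjusted p = 0.0126). The sum was 147 ± 30.4 CPM in mutant pools and 118 ± 10.8 CPM in wild-type pools. sox11 had a difference in log2 ratio of 0.48 (SE 0.094, limma adjusted p = 0.00422), and its sum stood at 470.3 ± 34.9 CPM in mutant pools and 683 ± 60.2 CPM in wild-type pools. The pou3f3 ratio differed by 0.51 (SE 0.13, limma adjusted p = 0.0135). For pou3f2 it differed by 0.401 (SE 0.12, limma adjusted p = 0.0249), a call that ended with an adjusted p of 0.0512 without mutant pool 3, 0.0529 without mutant pool 4, 0.0511 without wild-type pool 1, 0.0755 without wild-type pool 2 and 0.0514 without wild-type pool 4. The pairs of sox1, sox19 and sox4 did not pass, with differences of 0.304, 0.3002 and −0.22 (limma adjusted p = 0.0987, 0.108 and 0.235). RSEM divides reads that match both copies, so a ratio rests on that division wherever copies share sequence.

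**Figure D3:**
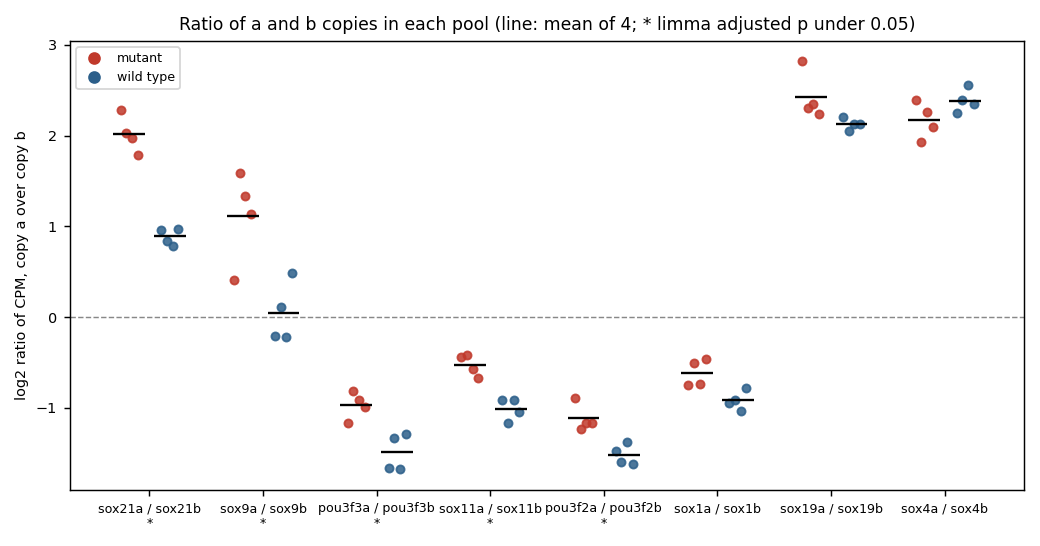
Log2 ratio of CPM of the a copy over the b copy (vertical axis) for the 8 Sox and Pou pairs, with a point for each pool, mutant left and wild type right, a line at the mean of 4, and a star where the limma adjusted p was under 0.05. The sox21 ratio averages 2.02 in mutant and 0.89 in wild-type pools, and in 7 of the 8 pairs the mutant mean is the higher one, sox4 being the exception.

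Summed by subgroup, the mean level of the transcription factor genes stood below, near or above wild type, given here as values with no test. SoxC stood at 72.7%, Pou2 at 72.6%, Pou3 at 70.6% and Pou4 at 74.2% of the wild-type mean. In wild-type pools pou2f1b made up 207 of the 218 CPM of Pou2. The Pou4 sums overlapped, with 10.9 CPM in mutant pool 4 and 9.91 CPM in wild-type pool 4. SoxB1 (89.9%), SoxB2 (98.5%) and SoxD (87.3%) were nearer to the wild-type mean. The SoxB2 sum joined sox21a at 125% with sox21b at 56.6% and sox14 at 53.0%. SoxE, at 199 ± 39.5 CPM in mutant pools and 160.2 ± 15.2 CPM in wild-type pools, reached 124%, and without sox9a the rest of SoxE stood at 97.0%. SoxF, at 25.7 ± 2.68 CPM in mutant pools and 21.00 ± 1.08 CPM in wild-type pools, reached 122%, and 103% without sox7. SoxC without sox11b stood at 88.8%. In SoxE the sum in mutant pool 1, 141 CPM, was below the wild-type pools' lowest of 142 CPM, while the other mutant pools held 208 to 224 CPM.

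**Figure D4:**
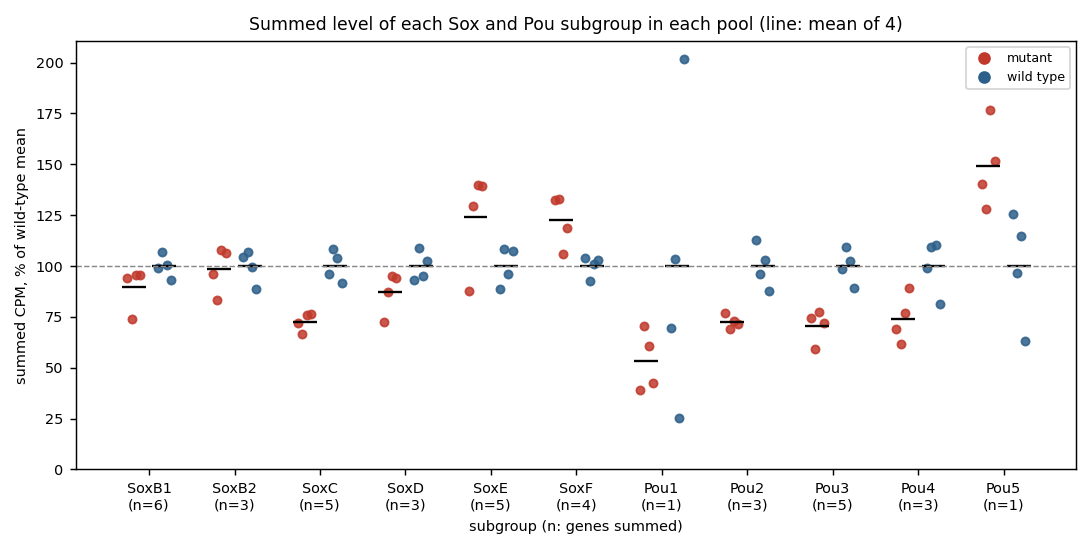
Summed CPM of each Sox and Pou subgroup in each pool as a percent of its wild-type mean (vertical axis, starting at 0), mutant left and wild type right, with a line at the mean of 4; sox2ot and the Pou6 class are left out. SoxC, Pou2 and Pou3 show mutant pools below all wild-type pools, with means of 72.7%, 72.6% and 70.6%, and Pou5 is the single gene pou5f3 at 149%.

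Of 13 cofactors of Sox and Pou proteins tested 3 changed, where 32.2% of all genes tested did: lef1 (32.4 ± 4.49 CPM in mutant and 19.7 ± 1.51 CPM in wild-type pools) and mycn (238 ± 36.8 CPM in mutant and 148 ± 29.1 CPM in wild-type pools) rose, and tcf7l2 fell (50.5 ± 6.55 CPM in mutant and 73.7 ± 15.5 CPM in wild-type pools), with a median log2 fold change of 0.197. Lists of other cells in the embryo changed too. Of 11 lens genes tested 9 fell and 1 rose (median log2 fold change −3.03; summed level 69.4 to 99.8 CPM in mutant pools and 113 to 137 CPM in wild-type pools), led by crybb1, cryba2a, crybb1l2 and crybb1l1 with log2 fold changes of −4.55, −4.35, −2.62 and −4.06. Most of the lens sum came from mafba, which rose, and prox1a, both named after their values were seen. They averaged 50.6 and 30.3 CPM in mutant pools and 32.9 and 42.8 CPM in wild-type pools. Of 12 blood genes 5 rose and none fell (median log2 fold change 0.88; summed level 348 to 493 CPM in mutant pools and 202 to 652 CPM in wild-type pools), with lmo2, spi1b, tal1 and gata1a at 1.06, 2.02, 0.6996 and 1.37. Of 5 germ cell genes tested 4 rose (median log2 fold change 1.0998; summed level 16.5 to 20.6 CPM in mutant pools and 6.76 to 11.7 CPM in wild-type pools), namely nanos3, tdrd7a, dnd1 and ddx4 at 1.41, 1.83, 1.0998 and 1.02.

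**Figure D5:**
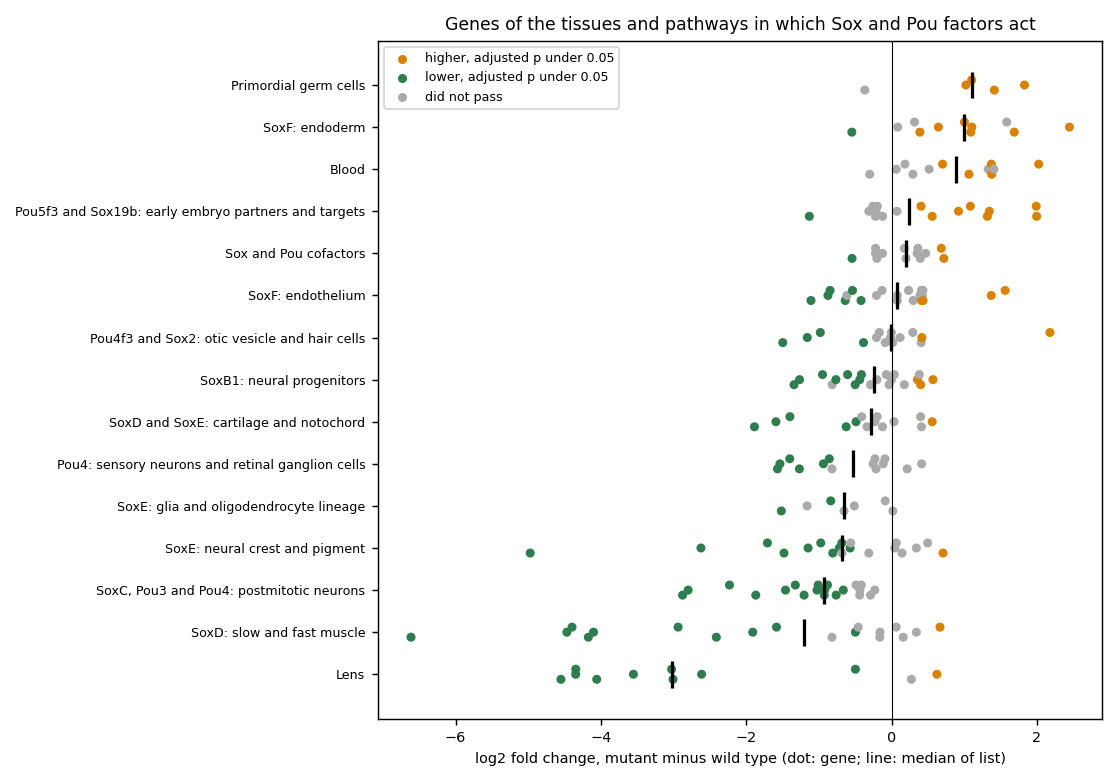
Log2 fold change (mutant minus wild type, horizontal axis) of each gene tested in 15 lists of tissues and pathways in which Sox and Pou factors act or that the embryo also holds, 1 dot per gene and a line at each list's median; orange marks genes higher and green genes lower at an edgeR adjusted p under 0.05. The medians run from −3.03 for lens to 1.0998 for primordial germ cells, with neurons at −0.93 and neural progenitors at −0.25.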

How the data were processed

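RNA of 8 pools of whole zebrafish embryos was sequenced after ribosomal RNA depletion, per the labels' protocols. The authors deposited expected counts per gene, 1 column per library and not scaled between libraries. Trimmomatic, STAR 2.7, RSEM and the build danRer11 are named per the submitters' processing notes, and those notes name no annotation, settings or strandedness.

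Counts were rounded to whole numbers, filtered with filterByExpr (minimum count 10), scaled by TMM and tested with edgeR 4.0.16 (glmQLFit with robust estimation, glmQLFTest, two-sided) in R 4.3.3, with Benjamini-Hochberg adjustment over the 22467 genes kept and a threshold of 0.05. Fold changes (log2) put the mutant over the wild type, and the SE is the size divided by the square root of F. Ratios of a over b copies, log2 of CPM plus 0.5, were tested with limma 3.58.1 over 2312 pairs. Low genes are given as depth-scaled ratios of summed counts with exact 95% intervals that cover counting error only. Groups and replicate numbers came from the titles, and nothing ties the pools to separate clutches, so the p-values cover only pool-to-pool spread, which may be technical. No replicate pair was within sampling noise (lowest chi-square per degree of freedom 5.80). The members and the 16 lists (231 of 234 symbols matched, some in more than 1 list) were chosen with earlier results of these data known. Text names every member that passed, the 4 others of highest mean per subgroup, and up to 4 genes per list with the smallest p; 1 member and 1 list are not reported here. Alternatives were DESeq2 1.42.0, its size factors, other filters, no robust estimation, a replicate block, a ribosomal protein covariate, summed rows, other pseudocounts and each library left out. In simulated mutant against wild-type counts of 22467 genes edgeR recovered 8% of 1.5-fold, 34% of 2-fold, 70% of 4-fold and 80% of 8-fold changes. Only 50 genes were changed at each fold there, whereas 32.2% of the genes were called in the data. The adjusted threshold was thus stricter in the simulation, and these shares do not give the power of this comparison.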

Additional observations from a re-analysis of the deposited data

Results flagged for a closer look

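Pools that stood far from the other 3 of their genotype were screened in 94 groups of 4, and 10 groups were picked out, where chance gives about 1 in 20. Among mutant pools, pool 1 was the low one for sox9a (58.4 CPM against 114 to 119 CPM in the others), sox6 (49.06 CPM) and pou2f2a (2.99 CPM). Mutant pool 2 was low for pou3f2a (19.2 CPM), and mutant pool 3 was high for sox2ot (7.81 CPM). Among wild-type pools, pool 2 was high for pou3f2b (100.5 CPM) and pou3f3a (84.4 CPM). Wild-type pool 4 was high for pou2f3 (2.55 CPM) and low for sox3 (286.6 CPM) and sox5 (110.9 CPM).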

How the results depend on the processing

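Of the 15 calls, 9 (pou2f1b, pou3f1, pou3f2b, sox2ot, sox6, sox11b, sox12, sox14 and sox21b) held in all 17 alternatives run on members, and no called member changed direction. The 6 others were lost in some, mostly with a library left out (28 of 32 losses). With the ribosomal protein covariate 11718 genes, 23 members and 4 higher members changed; DESeq2 also called 4 members higher. With 1 library left out the members changed ranged from 9 to 16, those higher from 0 to 3. A repeat chosen after seeing the data, without mutant pool 1 and wild-type pool 4, gave 11385 genes and 4 higher members. Signs turned only for members near 0 or at low counts: pou2f3 (0.11), sox4a (0.0208) and sox19a (−0.0597) in that repeat, and with 1 library left out pou3f3a (−0.0904 to 0.0258, positive also at 0.0165), sox18 (−0.131 to 0.0224), sox1b (−0.144 to 0.0190) and sox19a (−0.0251 to 0.13, negative also at −0.00678). DESeq2 size factors moved the median log2 fold change of all genes to 0.0138. The replicate block left 14 members changed (12 lower), against 15, sox9b being lost, and 845 pairs against 821. Same-numbered pools correlated at 0.65, 0.17, −0.27 and 0.0895 in their deviations, so the numbers were not taken to pair them. Genes under the filter are limited by depth.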

Other observations

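Within a genotype the members did not vary evenly over the pools. Of the 38 members tested, 20 had their lowest mutant level in pool 2 and 14 in pool 1, while none had it in pool 4. In wild type 19 had their lowest level in pool 4 and 13 their highest in pool 2. Such counts were not made over all genes tested, so this pattern cannot be told apart from a difference between whole libraries.

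Several members lie near each other in the RefSeq gene order of GRCz12tu. sox8b and sox9b have 3 annotated genes between them, and sox8a and sox9a have 16. pou3f2b and pou3f1, which both fell, share chromosome 16 with 27 genes between them. sox19b and sox6 lie on chromosome 7 with 19 genes between them, and of these sox6 fell while sox19b did not pass.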
